A study of Mus musculus with 32 samples.

Results

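The circadian clock genes examined here were Per1, Per2, Per3, Arntl, Clock, Npas2, Nr1d1, Nr1d2, Dbp and Ciart, 10 of the 54532 genes in the striatal count table. They were taken by symbol, with no threshold on their values. All 10 passed the filter on low counts, as did 16610 genes in all. Their RNA was measured in the striatum of 32 mice at 6 months of age, with 8 mice in each of 4 genotypes: wild-type, Msh3-/-, zQ175 and zQ175:Msh3-/-. Each group held 4 males and 4 females except zQ175:Msh3-/-, which held 5 males and 3 females. zQ175 is a knock-in model of Huntington's disease in which the endogenous mouse huntingtin gene carries an expanded CAG repeat, so the mutant protein is made wherever huntingtin is normally expressed. Msh3-/- mice lack MSH3, a DNA mismatch repair protein needed for the CAG repeat to lengthen further in somatic cells, through a CRISPR/Cas9 deletion carried in a single line. The groups were littermates on the C57BL/6J background, kept on a regular light and dark cycle. The time of day at which the striata were taken is not given in the sources used here, and its part in any result below was not tested.

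The mammalian clock is a feedback loop of transcription that runs in nearly every cell. ARNTL (also called BMAL1) pairs with CLOCK or with its relative NPAS2, and the pair binds E-box sequences to switch on the Per and Cry genes, whose proteins return to the nucleus and stop the pair. The same activators switch on Nr1d1 and Nr1d2, which encode the nuclear receptors REV-ERBα and REV-ERBβ. These receptors bind RORE sequences and repress Arntl and Npas2, so that the RNA of Arntl peaks when that of Nr1d1 and Dbp is low. DBP is a transcription factor that carries the rhythm to output genes through D-box sequences, and CIART (CHRONO) is a further repressor of the ARNTL pair. In the striatum these genes cycle under the lead of the suprachiasmatic nucleus, the pacemaker of the hypothalamus, and Per1 also responds to neuronal activity through cAMP response elements.

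The promoters are shown because the 3 kinds of binding sequence that join these genes into a loop can be read in them. RefSeq windows of 300 bases, from 250 bases before to 50 after a transcription start, were matched for 9 of the 10 members (not Per2) on GRCm38.p6. Per1 and Arntl each had 2 windows, of which 1 held a match, and Clock had 3 windows. The Per1 window with the match, chr11:69098699-69098998, lies inside the gene, whose annotated span starts at 69095217. The windows were searched on both strands for the E-box CACGTG, the E-box variant CACGTT, the D-boxes TTATGTAA and TTACGTAA, the cAMP response element TGACGTCA and the RORE. No matches overlapped each other. Positions are counted from the transcription start of the window, its first transcribed base being +1. Capitals mark the matched sequence, and each stretch is written along the strand of the gene.
Ciart, chr3:95882319-95882364, minus strand, E-box at -116: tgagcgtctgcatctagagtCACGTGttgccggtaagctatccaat
Ciart, chr3:95882247-95882306, minus strand, E-boxes at -58 and -44: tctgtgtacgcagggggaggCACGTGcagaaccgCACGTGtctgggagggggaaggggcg
Per1, chr11:69098763-69098808, plus strand, E-box at -166: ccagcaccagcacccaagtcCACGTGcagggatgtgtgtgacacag
Nr1d1, chr11:98775380-98775425, minus strand, E-box variant on the opposite strand at -28: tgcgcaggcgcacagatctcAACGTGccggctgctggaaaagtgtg
Per3, chr4:151044843-151044890, minus strand, D-box at -205: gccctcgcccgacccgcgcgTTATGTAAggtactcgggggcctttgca
Per3, chr4:151044796-151044843, minus strand, D-box at -158: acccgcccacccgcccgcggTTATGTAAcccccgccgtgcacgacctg
Arntl, chr7:113207528-113207556, plus strand, RORE at +27: ggaaggcagAAAGTAGGTCAgggacggag

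Over all 32851 windows of the same length, 7.15% held the E-box, 4.68% the variant CACGTT, 0.938% the D-box TTATGTAA, 0.119% the D-box TTACGTAA, 1.79% the cAMP response element and 0.384% the RORE. Ciart held 3 E-boxes in its window and Per3 held 2 D-boxes. None of the 6 sequences was found in the windows of Clock, Npas2, Nr1d2 or Dbp. Neither the cAMP response element nor the D-box TTACGTAA was found in any window of a member, those of Per1 included. These matches are letters in a fixed window and are not measurements of binding.

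The deposited counts summed to between 12359347 and 25030335 reads per mouse. Msh3 checked the labels: it lay at 22.8 to 27.5 CPM (a gene's reads per 1e+06 reads, with TMM scaling) in the mice with intact Msh3 and at 10.4 to 14.2 CPM in the knockouts. The remaining reads can come from the part of the gene outside the deletion. Markers of spiny projection neurons, the main neurons of the striatum, summed to between 5350 and 6800 CPM in the mice without the zQ175 allele, and to between 3030 and 4020 CPM in those with it. Defining markers of the suprachiasmatic nucleus were at or near 0, with Six6 at a median of 0 CPM, Avp at 0 to 1.62 CPM and Vip at 0.628 to 6.5 CPM. Markers of the choroid plexus varied between mice of every genotype, from 18.8 to 2900 CPM in sum, and 7 of the 32 mice had a sum of 500 CPM or more. Cortical markers summed to between 33 and 623 CPM. Of the astrocyte markers 0 of 5 were called in either zQ175 comparison, of the oligodendrocyte markers 1 of 5 in the first, of the microglial markers 0 of 4, and of the endothelial markers 1 of 3 in the first. The shares of all genes called were 11.6% against wild-type, the first comparison, and 10.6% on the Msh3-/- background. In bulk tissue, fewer cells of a type and less RNA per cell cannot be told apart.

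Compared per length, in TPM, the deposited values corrected for gene length, Dbp was the most abundant member in wild-type striatum at 197 ± 50.2 TPM (SD, n = 8), followed by Nr1d1 at 105 ± 20.6 TPM, Nr1d2 at 63.3 ± 9.35 TPM, Per1 at 49.4 ± 9.58 TPM and Npas2 at 46.3 ± 4.08 TPM. Arntl lay at 33.8 ± 2.94 TPM, Clock at 28.7 ± 1.57 TPM, Ciart at 17.7 ± 6.32 TPM, Per2 at 17.2 ± 6.12 TPM and Per3 at 15.8 ± 2.71 TPM. Of neighbours in this order, Dbp and Nr1d1, Nr1d1 and Nr1d2, and Npas2 and Arntl did not overlap in range between the 8 mice. The ranges of Nr1d2 and Per1, Per1 and Npas2, Arntl and Clock, Clock and Ciart, Ciart and Per2, and Per2 and Per3 overlapped. Both genes of a pair were measured in the same 8 mice, so this overlap does not show whether their order varied. Arntl lay above Clock in every wild-type mouse, by the least in male replicate 4 (29.3 beside 29.2 TPM). The order of the other overlapping pairs within each mouse was not compared. In zQ175 striatum Npas2 stood at 30.7 ± 1.77 TPM, beside Arntl at 28.5 ± 3.6 TPM and Clock at 28.4 ± 2.09 TPM.

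**Figure D1:**
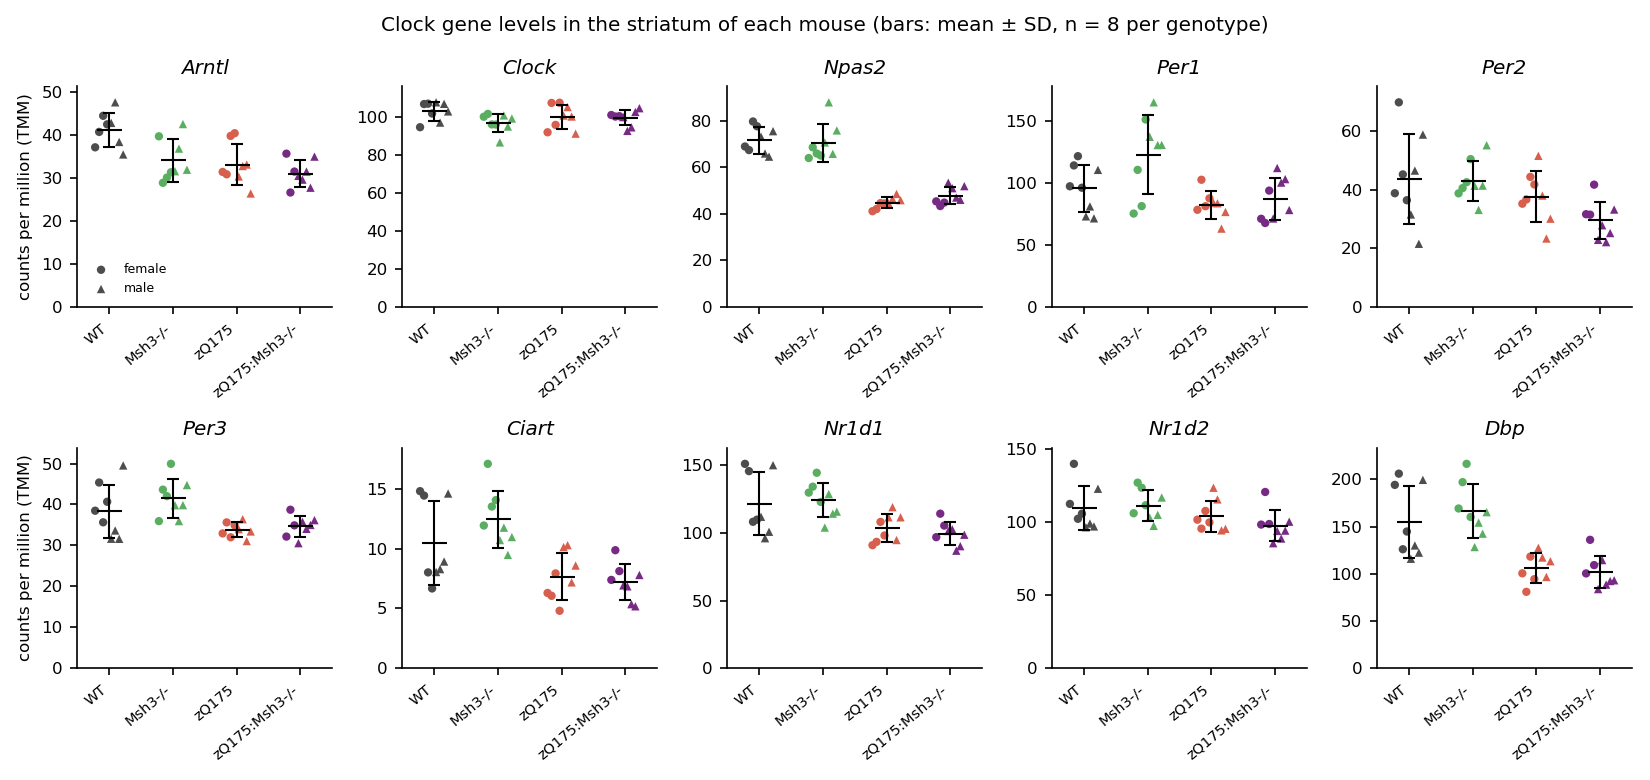
TMM-scaled CPM of the 10 clock genes (vertical axes, each from 0) in each mouse, by genotype, with females as circles, males as triangles and the mean ± SD in black. Npas2 lies between 64 and 88 CPM in the 16 mice without the zQ175 allele and between 41.1 and 53.4 CPM in the 16 mice with it, while Clock lies between 86.7 and 108 CPM over the 4 genotypes.

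The effect of the zQ175 allele was measured in 2 sets of separate mice, against wild-type and against Msh3-/- littermates. In zQ175 against wild-type mice 3 of the 10 clock genes changed, and all 3 fell: Npas2, Dbp and Arntl. In zQ175:Msh3-/- against Msh3-/- mice 6 changed, and all 6 fell: Npas2, Dbp, Ciart, Per2, Per1 and Nr1d1. The second count was 3 by limma on log2(TPM + 0.1) with no filter on low values. A gene was called in edgeR where its adjusted p lay under 0.05 and its fold change reached 1.2. Over all genes tested, 11.6% were called in the first comparison (6.89% as lower) and 10.6% in the second (5.96% as lower). The median log2 fold change of the members was -0.23 in the first and -0.41 in the second, beside 0.01 in both over all genes tested. The estimate was negative for 10 of 10 members in the first comparison and for 9 of 10 in the second, against 7806 and 7713 of the 16610 genes.

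**Figure D2:**
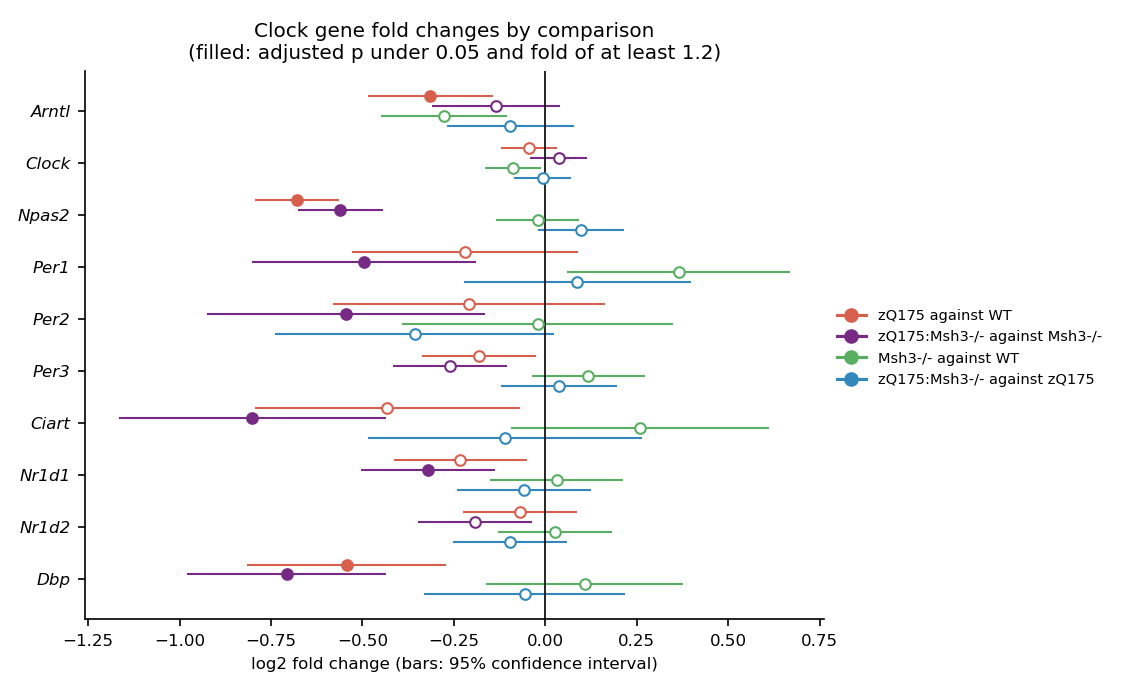
Log2 fold change of each clock gene (horizontal axis, with its 95% confidence interval) in the 2 comparisons of the zQ175 allele and the 2 comparisons of Msh3 loss; filled points passed both thresholds. Filled points occur only for the zQ175 allele and lie to the left of 0, from -0.31 for Arntl to -0.80 for Ciart.

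Gene positions are those of GENCODE M21 on GRCm38, and each range below is that of the 8 mice of a genotype. Among the activators, Npas2 (ENSMUSG00000026077, chr1:39193731-39363236, plus strand) fell in both comparisons. Npas2 ranged from 64.6 to 79.7 CPM in wild-type mice (median 71.1), from 64 to 88 in Msh3-/- mice (median 67.3), from 41.1 to 48.5 in zQ175 mice (median 44.5) and from 43.3 to 53.4 in zQ175:Msh3-/- mice (median 46.5). Every mouse with the zQ175 allele lay below every mouse without it. Over all genes tested, 4.61% were lower with no overlap against wild-type, and 3.64% against Msh3-/-, and Npas2 was the one member among them in either comparison. The log2 fold change of Npas2 was -0.68 (SE 0.0565, adjusted p = 8.29e-12) against wild-type, which left 62.5% of the wild-type level, and -0.56 (SE 0.0566, adjusted p = 1.14e-09) against Msh3-/-. The exact permutation p of the difference in mean log2 CPM was 0.000155 in each, the smallest that 12870 arrangements of 8 against 8 mice can give. The fall in spiny neuron markers moved with the same allele, with a median log2 fold change of -0.81 and -0.76 over 7 markers. Of these, 6 were called as lower in each comparison, beside 6.89% and 5.96% of all genes. The part of this fall in the result for Npas2 was not tested.

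Clock (ENSMUSG00000029238, chr5:76209868-76304792, minus strand), which encodes the partner that NPAS2 can replace, had the lowest spread between mice of the 10 members. It ranged from 94.7 to 108 CPM in wild-type mice (median 104.9), from 86.7 to 102 in Msh3-/- mice (median 97.7), from 91.3 to 108 in zQ175 mice (median 100.5) and from 92.7 to 105 in zQ175:Msh3-/- mice (median 100.4). The 4 ranges overlapped. Its log2 fold change was -0.04 (95% interval -0.12 to 0.03) in zQ175 against wild-type and 0.04 (95% interval -0.04 to 0.11) on the Msh3-/- background. The difference between Clock and Npas2 in response was not tested as such, and their 95% intervals did not overlap in either comparison.

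Arntl (ENSMUSG00000055116, chr7:113207465-113314126, plus strand) was highest in wild-type mice, at 35.5 to 47.6 CPM (median 41.6), and lower in the other genotypes. It ranged from 28.9 to 42.6 CPM in Msh3-/- mice (median 31.7), from 26.4 to 40.4 in zQ175 mice (median 32.1) and from 26.6 to 35.7 in zQ175:Msh3-/- mice (median 31). In zQ175 against wild-type mice its log2 fold change was -0.31 (SE 0.0836, adjusted p = 0.00469), with 6 of 8 zQ175 mice below all wild-type mice and an exact permutation p of 0.00357. On the log2(TPM + 0.1) scale it was -0.25 (adjusted p = 0.0152) and missed the fold threshold. On the Msh3-/- background the log2 fold change was -0.13 (SE 0.0853, adjusted p = 0.276). In Msh3-/- against wild-type mice it was -0.28 (SE 0.0839) with an unadjusted p of 0.00242, which did not pass over all genes (adjusted p = 0.785).

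Among the repressors, Per1 (ENSMUSG00000020893, chr11:69095217-69109960, plus strand) and Per2 (ENSMUSG00000055866, chr1:91415982-91459324, minus strand) varied widely between mice and were called on the Msh3-/- background and not against wild-type. Per1 ranged from 71.4 to 122 CPM in wild-type mice (median 96.8), from 75.3 to 165 in Msh3-/- mice (median 130.9), from 63.1 to 103 in zQ175 mice (median 82.5) and from 67.7 to 112 in zQ175:Msh3-/- mice (median 86.1). The 4 groups overlapped, and the Msh3-/- mice reached the highest values. The log2 fold change of Per1 was -0.50 (SE 0.1497, adjusted p = 0.0152) on the Msh3-/- background, and -0.22 (SE 0.1503, adjusted p = 0.31) against wild-type. The call on the Msh3-/- background was lost with a replicate block (-0.45, adjusted p = 0.0573) and by limma on log2 TPM in each of the 3 fits run (adjusted p of 0.0552 to 0.0648). Msh3-/- mice exceeded wild-type mice in Per1 by 0.36 on the log2 scale, with an unadjusted p of 0.0208 and an adjusted p of 0.926.

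Per2 ranged from 21.5 to 69.9 CPM in wild-type mice (median 42), a 3.25-fold span within a single genotype. It ranged from 33.1 to 55.2 CPM in Msh3-/- mice (median 41.4), from 23.3 to 51.6 in zQ175 mice (median 37.3) and from 22.1 to 41.7 in zQ175:Msh3-/- mice (median 29.6). The wild-type range covered that of each other genotype. The log2 fold change of Per2 was -0.55 (SE 0.1855, adjusted p = 0.0309) on the Msh3-/- background and -0.21 (SE 0.1812, adjusted p = 0.44) against wild-type. The call on the Msh3-/- background was lost without Msh3-/- male replicate 4 (adjusted p = 0.0682), Msh3-/- female replicate 4 (adjusted p = 0.0562) or zQ175:Msh3-/- male replicate 1, 3 or 4 (adjusted p = 0.0614, 0.0627 and 0.0555). It was also lost among the 25 mice with low choroid plexus markers (adjusted p = 0.0932), with no filter on low counts (adjusted p = 0.058) and by limma on log2(TPM + 0.1) with no filter (adjusted p = 0.059).

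Per3 (ENSMUSG00000028957, chr4:151003652-151044665, minus strand) lay at 31.6 to 49.5 CPM in wild-type mice (median 37.1), 35.9 to 49.9 in Msh3-/- mice (median 40.9), 31 to 36.4 in zQ175 mice (median 33.7) and 30.5 to 38.7 in zQ175:Msh3-/- mice (median 35). The spread of Per3 was narrower in the groups with the zQ175 allele, with an SD of log2 CPM of 0.0776 and 0.105 beside 0.239 in wild-type and 0.161 in Msh3-/- mice. On the Msh3-/- background its log2 fold change of -0.26 (SE 0.0764, adjusted p = 0.0112) stood at the fold limit, which is 0.263 on the log2 scale, and it was called by DESeq2 (-0.26, adjusted p = 0.00563). Against wild-type it was -0.18 (SE 0.0763, adjusted p = 0.0798).

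Ciart (ENSMUSG00000038550, chr3:95878503-95882251, minus strand) was the least abundant member in CPM. It ranged from 6.67 to 14.8 CPM in wild-type mice (median 8.61), from 9.48 to 17.1 in Msh3-/- mice (median 11.9), from 4.8 to 10.3 in zQ175 mice (median 7.56) and from 5.18 to 9.88 in zQ175:Msh3-/- mice (median 7.16). On the Msh3-/- background 7 of 8 zQ175:Msh3-/- mice lay below all Msh3-/- mice, and the log2 fold change of -0.80 (SE 0.1786, adjusted p = 0.00112) was the largest of the 10 members there. Against wild-type it was -0.43 (SE 0.1771, adjusted p = 0.0713), with 3 of 8 zQ175 mice below all wild-type mice. DESeq2 called it in that comparison (log2 fold change -0.45, adjusted p = 0.0351).

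The nuclear receptor Nr1d1 (ENSMUSG00000020889, chr11:98767932-98775333, minus strand) was called on the Msh3-/- background. It ranged from 96.1 to 151 CPM in wild-type mice (median 111), from 104 to 145 in Msh3-/- mice (median 125.9), from 91 to 119 in zQ175 mice (median 103) and from 86.9 to 114 in zQ175:Msh3-/- mice (median 100.1). On the Msh3-/- background its log2 fold change was -0.32 (SE 0.0894, adjusted p = 0.00809), with 6 of 8 zQ175:Msh3-/- mice below all Msh3-/- mice. By limma on log2 TPM it was -0.24 in each of the 3 fits run (adjusted p of 0.0397 to 0.0565) and was not called. Against wild-type it was -0.23 (SE 0.0889, adjusted p = 0.0524) in edgeR, and it was called among the mice with low choroid plexus markers (-0.30, adjusted p = 0.0114). Without zQ175 male replicate 2 both Nr1d1 (adjusted p = 0.0332) and Ciart (adjusted p = 0.0399) passed, which raised the count of clock genes called in that comparison from 3 to 5. Nr1d1 shares 263 exonic bases with Thra on the opposite strand, and whether counting used the strand is not given in the sources used here. Thra itself had a log2 fold change of 0.09 and 0.03 in the 2 comparisons.

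Nr1d2 (ENSMUSG00000021775, chr14:18204054-18239127, minus strand) was not called in either comparison. It ranged from 96.6 to 140 CPM in wild-type mice (median 104), from 97.5 to 127 in Msh3-/- mice (median 109), from 94.5 to 124 in zQ175 mice (median 100.8) and from 85.7 to 121 in zQ175:Msh3-/- mice (median 96.4). Its log2 fold change was -0.07 (95% interval -0.23 to 0.09) against wild-type and -0.19 (95% interval -0.35 to -0.03, adjusted p = 0.067) on the Msh3-/- background.

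Dbp (ENSMUSG00000059824, chr7:45705088-45710203, plus strand), the output factor, fell in both comparisons. It ranged from 116 to 206 CPM in wild-type mice (median 137), from 128 to 216 in Msh3-/- mice (median 163), from 80.8 to 127 in zQ175 mice (median 107) and from 83.7 to 136 in zQ175:Msh3-/- mice (median 96.6). In wild-type mice 3 of the 8 stood apart, female replicates 1 and 2 and male replicate 4, at 194, 206 and 199.4 CPM, while the other 5 lay between 116 and 145 CPM. The same 3 mice had the highest Nr1d1 (151, 146 and 150.2 CPM) and the highest Ciart (14.8, 14.5 and 14.6 CPM) of their genotype. The log2 fold change of Dbp was -0.54 (SE 0.1327, adjusted p = 0.00254) against wild-type and -0.71 (SE 0.1332, adjusted p = 0.000187) on the Msh3-/- background, with exact permutation p-values of 0.00187 and 0.000311. Leaving out any single mouse of the 32 changed neither call of Dbp. No fold change was refitted without the 3 high wild-type mice together. How far the estimates of Dbp, Nr1d1 and Ciart against wild-type rest on these 3 mice was not tested. Dbp shares 539 exonic bases with Sphk2 on the opposite strand, and whether counting used the strand is not given. Sphk2, at a mean of 26.2 CPM, was called as higher against wild-type (log2 fold change 0.35, adjusted p = 3.04e-05). On the Msh3-/- background it missed the fold limit (0.19, adjusted p = 0.0215). The Pearson r of Sphk2 and Dbp, as deviations from the genotype mean, was -0.506. The part of the shared bases in the result for Dbp was not tested.

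Averaged over both Msh3 genotypes, 16 mice with the zQ175 allele against 16 without it, 6 clock genes were called and all 6 as lower, beside 13.7% of all genes called and 7.38% called as lower. These were Npas2 (log2 fold change -0.62), Dbp (-0.63), Ciart (-0.62), Per2 (-0.38), Per1 (-0.36) and Nr1d1 (-0.28). The call of Nr1d1 stood close to the fold limit and was lost without wild-type female replicate 1 (-0.25), wild-type female replicate 2 (-0.26), wild-type male replicate 4 (-0.25) or Msh3-/- female replicate 3 (-0.26). The averaged calls of Nr1d1 and Per2 were also lost by limma on log2 TPM. Arntl (-0.22, adjusted p = 0.003) and Per3 (-0.22, adjusted p = 0.0013) passed the adjusted p but not the fold threshold. Nr1d2 (-0.13, adjusted p = 0.0538) and Clock (0.00, adjusted p = 0.925) passed neither.

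Loss of Msh3 changed no clock gene by edgeR. Between zQ175:Msh3-/- and zQ175 mice 0 of 10 members were called, beside 0.00602% of all genes. An unadjusted p under 0.05 was held by 0 members, beside 614 of the 16610 genes tested. Between Msh3-/- and wild-type mice 0 were called, beside 0.00602% of all genes. Of the members 3 (Arntl, Per1 and Clock) had an unadjusted p under 0.05 there, beside 846 of the 16610 genes. DESeq2 and limma also called 0 members in both. The estimates within zQ175 ran from -0.36 for Per2 (95% interval -0.74 to 0.02) to 0.10 for Npas2 (95% interval -0.02 to 0.22). For Dbp the 95% interval of the Msh3 effect within zQ175 was -0.33 to 0.22, so that a loss of up to that size was not excluded here.

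Whether the effect of the zQ175 allele differed between the Msh3 genotypes was tested by the interaction term. No clock gene passed by edgeR, DESeq2 or limma, and 0% of all genes were called. An unadjusted p under 0.05 was held by 0 of 10 members and by 737 of the 16610 genes. The estimates for Per1 (-0.28, SE 0.212), Per2 (-0.34, SE 0.2592) and Ciart (-0.37, SE 0.2515) were each less than 1.5 times their standard errors. The calls made on the Msh3-/- background and not against wild-type are thus not shown to differ between the backgrounds. Between males and females, with the genotype in the model, edgeR, DESeq2 and limma called 0 of 10 members, beside 0.169% of all genes by edgeR. The single unadjusted p under 0.05 was that of Npas2, beside 1546 of the 16610 genes. Npas2 was higher in males by 0.09 on the log2 scale (unadjusted p = 0.0168, adjusted p = 0.4).

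The wider clock list held 25 further genes and all were tested. In zQ175 against wild-type mice 1 was called as higher and 5 as lower, and on the Msh3-/- background 1 as higher and 4 as lower. The shares of all genes called were 11.6% (6.89% as lower) and 10.6% (5.96% as lower). The median log2 fold change of the list was 0.00 and 0.02, close to that of all genes tested. Tef and Hlf, which encode the relatives of DBP that bind the same D-box, were lower in both: Tef by a log2 fold change of -0.28 and -0.28 (adjusted p = 3.76e-06 and 6.08e-06) and Hlf by -0.44 and -0.38 (adjusted p = 8.49e-06 and 8.1e-05). Fbxl21, an F-box protein that acts on the cryptochromes, was lower by -0.51 and -0.36 (adjusted p = 5.44e-06 and 0.000934). Gsk3b, a kinase that phosphorylates several clock proteins, was lower by -0.40 and -0.29 (adjusted p = 9.03e-11 and 1.67e-07). Usp2, a deubiquitinase, was called against wild-type (-0.29, adjusted p = 0.0035) and not on the Msh3-/- background (-0.21, adjusted p = 0.0368), where it missed the fold limit. Arntl2, the relative of Arntl, was the one gene of the list called as higher, by 0.43 and 0.40 on the log2 scale (adjusted p = 0.000583 and 0.0016).

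The cryptochromes, which form the repressor complex with the PER proteins, were not called. Cry1 had a log2 fold change of -0.14 (adjusted p = 0.19) and -0.23 (adjusted p = 0.0318), and Cry2 of 0.01 (adjusted p = 0.882) and -0.02 (adjusted p = 0.713). Bhlhe41, a repressor that competes for E-boxes, had -0.04 (adjusted p = 0.814) and -0.24 (adjusted p = 0.0559). The D-box repressor Nfil3 had positive estimates of 0.11 (adjusted p = 0.492) and 0.23 (adjusted p = 0.113). No gene of the wider list was called in either comparison of Msh3 loss by edgeR, and 0 of 25 had an unadjusted p under 0.05. Over all 16610 genes, 614 had such a p within zQ175 and 846 without the zQ175 allele.

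The clock genes were also compared between mice of the same genotype, by the correlation of each mouse's deviation from its genotype mean in log2 CPM over the 32 mice. Of the 45 pairs of members, 12 passed at an adjusted permutation p under 0.05 over the 45 pairs, 11 of them positive and 1 negative. The tightest set was Dbp, Nr1d1, Nr1d2 and Ciart. Dbp followed Nr1d1 (Pearson r = 0.870, Spearman rho = 0.857), Nr1d2 (r = 0.845, rho = 0.827) and Ciart (r = 0.797, rho = 0.785), each with a permutation p of 1e-05, the smallest that 100000 resamples can give, and an adjusted p of 7.5e-05 for r and 0.000112 for rho. Within the 4 genotypes taken alone, r ranged from 0.76 to 0.923 for Dbp and Nr1d1, from 0.752 to 0.915 for Dbp and Nr1d2 and from 0.702 to 0.882 for Dbp and Ciart. Without the 2 mice farthest from the median of the gene on the x axis the values were 0.845, 0.802 and 0.756. Without the 3 wild-type mice with the highest Dbp, r over the other 29 mice was 0.777 for Nr1d1, 0.803 for Nr1d2 and 0.666 for Ciart, given as a description.

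**Figure D3:**
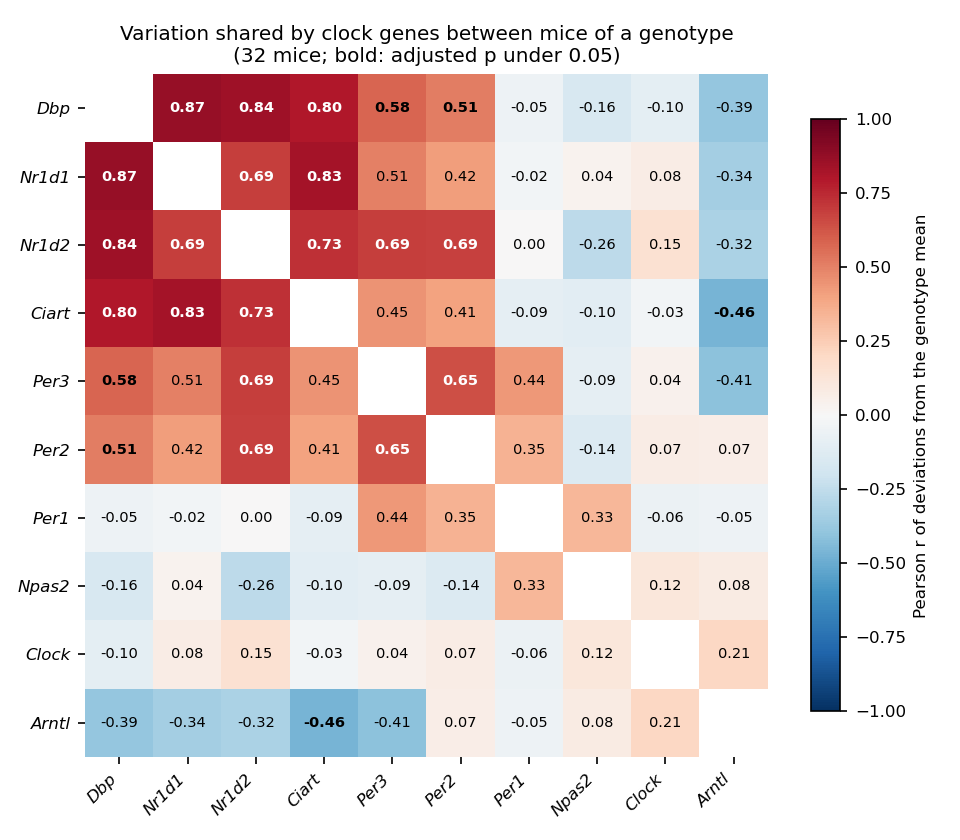
Pearson r between each pair of clock genes, over 32 mice, of the deviation in log2 CPM from the genotype mean (colour scale from -1 to 1), with pairs that passed an adjusted p under 0.05 in bold. Dbp, Nr1d1, Nr1d2 and Ciart form a block with r of 0.695 to 0.870, Per3 and Per2 join it through Nr1d2 and Dbp, and Arntl has a negative r with each gene of the block, which passed with Ciart alone (-0.462).

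Per2 and Per3 joined this set through Nr1d2 and Dbp. Per3 followed Nr1d2 (r = 0.693, adjusted p = 7.5e-05; rho = 0.731) and Dbp (r = 0.583, adjusted p = 0.0159; rho = 0.563), and without the farthest mice r was 0.67 and 0.493. Within genotypes r ranged from 0.289 to 0.879 for Per3 and Nr1d2, and from -0.131 in zQ175 to 0.877 in wild-type mice for Per3 and Dbp. Per2 followed Nr1d2 (r = 0.686, adjusted p = 0.000562; rho = 0.687), Per3 (r = 0.646, adjusted p = 0.00225; rho = 0.544) and Dbp (r = 0.509, adjusted p = 0.0353; rho = 0.449, adjusted p = 0.0736), and without the farthest mice r was 0.611, 0.532 and 0.388. Within genotypes these pairs ranged from 0.476 to 0.793, from 0.398 to 0.82, and from 0.0712 in Msh3-/- to 0.686 in wild-type mice. The relation of Per2 with Dbp was the weakest of the positive pairs that passed, was not passed by the rank measure, and did not hold without 7 of the 32 mice taken 1 at a time, where r ranged from 0.429 to 0.544 over all 32 omissions. With deviations taken from the mean of genotype and sex, neither Per2 (r = 0.514, adjusted p = 0.0731) nor Per3 (r = 0.567, adjusted p = 0.0603) passed with Dbp.

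Arntl had negative values with Ciart, Per3, Dbp, Nr1d1 and Nr1d2, of which 1 passed in the main setting. Its r was -0.462 with Ciart (adjusted p = 0.0353; rho = -0.483, adjusted p = 0.025), -0.413 with Per3 (adjusted p = 0.0542; rho = -0.441), -0.388 with Dbp (adjusted p = 0.0762; rho = -0.392), -0.34 with Nr1d1 (adjusted p = 0.116; rho = -0.339) and -0.318 with Nr1d2 (adjusted p = 0.166; rho = -0.344). With Per2 the r of Arntl was positive, at 0.0668 (adjusted p = 0.868; rho = 0.0601). Within genotypes the sign for Arntl and Nr1d2 was not the same throughout, from -0.696 in Msh3-/- to 0.0877 in zQ175 mice. The relation with Ciart was the one that passed in the main setting, with an r of -0.346 without the 2 farthest mice. Within genotypes it ranged from -0.711 to 0.00676. Its r over omissions of single mice ran from -0.529 to -0.389, and it did not pass in 7 of the 32 or with deviations taken from the mean of genotype and sex (r = -0.372, adjusted p = 0.102). Arntl also passed with Per3, Dbp, Nr1d1 and Nr1d2 in 1 of the other settings each. Over those settings r reached -0.4999, -0.4887, -0.4542 and -0.4205. With single mice left out, Arntl passed with Per3 in 9 of the 32 omissions and with Dbp in 3.

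Of the pairs that held Per1, Clock or Npas2, 0 of 9 passed for each. Per1 had an r of -0.0538 with Dbp, -0.0238 with Nr1d1 and -0.0886 with Ciart. These values pool genotypes of opposite sign: with Dbp, r was 0.617 in wild-type and -0.622 in Msh3-/- mice, and with Nr1d2 it was 0.686 and -0.448. The difference between genotypes was not tested. Its highest was 0.437 with Per3 (adjusted p = 0.0732; rho = 0.381), within genotypes from 0.152 to 0.778. Per1 and Per3 passed with deviations taken from the mean of genotype and sex (r = 0.564, adjusted p = 0.0398), on log2(TPM + 1) (r = 0.473, adjusted p = 0.0395), and without Msh3-/- male replicate 2 (r = 0.563), zQ175:Msh3-/- female replicate 2 (r = 0.508) or wild-type female replicate 3 (r = 0.482). Per1 and Per2 (r = 0.346, adjusted p = 0.116) passed without Msh3-/- male replicate 2 (r = 0.438, adjusted p = 0.038). Npas2, the member with the clearest difference between genotypes, had an r of -0.157 with Dbp (adjusted p = 0.701; rho = -0.104).

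**Figure D4:**
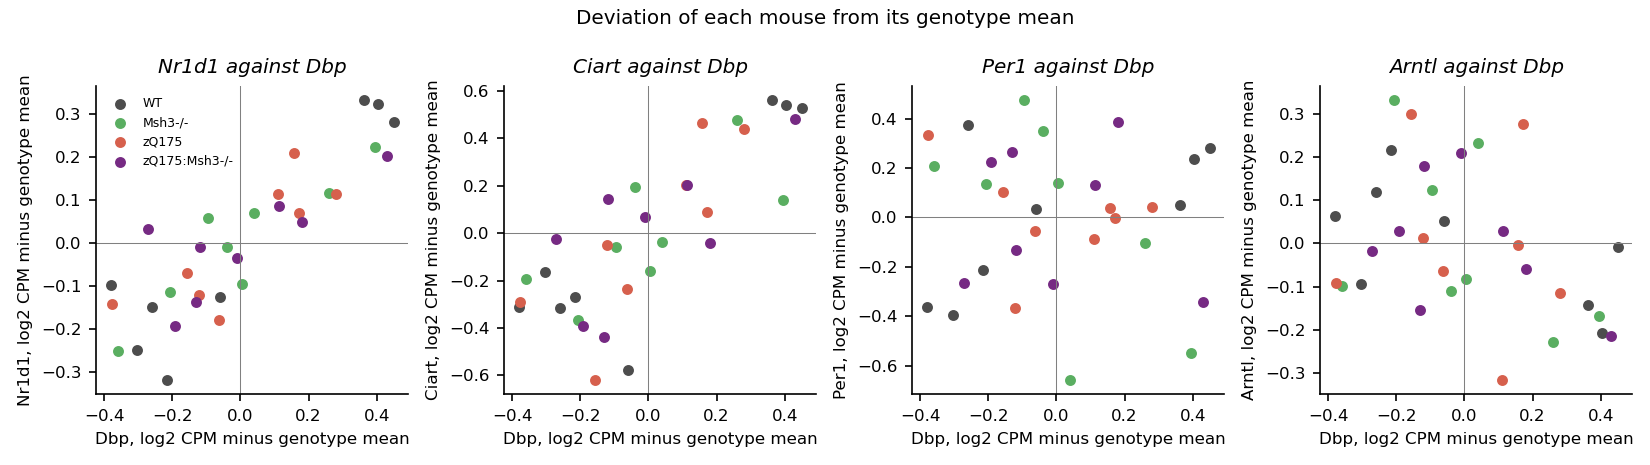
Deviation of each of 32 mice from its genotype mean in log2 CPM, with Dbp on the horizontal axis and Nr1d1, Ciart, Per1 or Arntl on the vertical axis, coloured by genotype. Nr1d1 (r = 0.870) and Ciart (r = 0.797) rise with Dbp across all 4 genotypes, Per1 has a pooled r of -0.0538 that spans 0.617 in wild-type to -0.622 in Msh3-/- mice, and Arntl has an r of -0.388 that did not pass (adjusted p = 0.0762).

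The size of the variation between mice differed among the members. The SD of log2 CPM within genotypes was 0.37 for Per2, 0.36 for Ciart, 0.306 for Per1 and 0.264 for Dbp, beside a median of 0.136 over all genes tested. Those of Nr1d1 (0.181), Arntl (0.176), Per3 (0.158) and Nr1d2 (0.155) were nearer to that median. Npas2 (0.117) and Clock (0.0759) lay below it. Wild-type mice had the highest SD of the 4 genotypes for Per2 (0.528), Ciart (0.465), Dbp (0.349), Nr1d1 (0.269), Per3 (0.239) and Nr1d2 (0.189). The difference in spread between genotypes was not tested.

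The genes most like Dbp in their variation between mice were sought over all genes tested, as a description with no test. Of the 16609 other genes, Nr1d1 and Nr1d2 ranked 1 and 2, and Ciart ranked 5. The 5 that were not members were Tef (r = 0.843), Bhlhe41 (r = 0.826), Usp2 (r = 0.754), Lingo3 (r = 0.724) and Camkk1 (r = 0.718). Lingo3 encodes a membrane protein with leucine-rich repeats and Camkk1 a kinase that activates calcium/calmodulin-dependent kinases. Both were lower with the zQ175 allele, Lingo3 by a log2 fold change of -0.53 and -0.52 and Camkk1 by -0.41 and -0.46. At the other end the most opposed gene was Nfil3 (r = -0.753), followed by Leo1 (r = -0.692), Dtx4 (r = -0.671), Rasa2 (r = -0.655) and Pdk4 (r = -0.653). NFIL3 binds the D-box that DBP binds and represses where DBP activates. Hlf ranked 14 with an r of 0.673, and Cry1 ranked 4249 with an r of 0.136.

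The 5 genes most like Arntl were Fam13b (r = 0.699), Fam13c (r = 0.635), Socs5 (r = 0.633), Rprd1a (r = 0.624) and Ythdf1 (r = 0.623), none of them on the clock list. Socs5, a suppressor of cytokine signalling, was called as lower in both zQ175 comparisons (log2 fold change -0.31 and -0.3). Rprd1a (-0.22 and -0.2) missed the fold limit in both. All these correlations share the same 32 libraries and their depths.

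The activity-dependent genes, induced within minutes of neuronal firing, were examined beside the clock genes because Per1 is also induced by firing. Of 11 such genes, all tested, 2 fell in zQ175 against wild-type mice (Egr2 and Dusp1) and 4 on the Msh3-/- background (Egr1, Egr2, Egr4 and Dusp1), and 0 rose. The shares of all genes called as lower were 6.89% and 5.96%. Their summed level ranged from 611 to 1060 CPM in wild-type mice, from 378 to 1780 in Msh3-/- mice, from 441 to 865 in zQ175 mice and from 410 to 863 in zQ175:Msh3-/- mice. The Msh3-/- mice thus had the widest range in these genes, as they had in Per1. Per1 followed the mean deviation of the 11 genes between mice of a genotype (r = 0.571, permutation p = 0.00401, adjusted p = 0.0239 over the 10 members; rho = 0.533, adjusted p = 0.0411), a relation chosen after the values were seen. Within genotypes r was 0.845 in Msh3-/-, 0.706 in zQ175:Msh3-/-, 0.355 in zQ175 and -0.253 in wild-type mice, and without the 2 mice farthest from the median of the activity measure it was 0.416. Nr1d2 was negative with the activity genes (r = -0.47, adjusted p = 0.0239; rho = -0.4, adjusted p = 0.139), and Dbp had an r of -0.37 (adjusted p = 0.115; rho = -0.282). Sex was not removed from these deviations. In males against females the 11 genes had a median log2 fold change of 0.31, with 0 negative estimates and 0 called. The estimate there was 0.04 for Per1, -0.10 for Nr1d2 and -0.17 for Dbp. The part of sex in these relations was not tested. The part of the activity-dependent genes in the lower Per1 of zQ175:Msh3-/- mice was not tested.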

How the data were processed

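Striatal RNA of 32 mice was sequenced as poly(A)-selected, paired-end libraries. Per gene and mouse, the authors deposited raw counts and a table named FPKM whose columns each sum to 1e+06, so its values were treated as TPM. The submitters' processing notes name GRCm38.p6. The aligner, counting program and strand setting are not given in the sources used here. Symbols were found for 54409 of 54532 gene identifiers, and positions came from GENCODE M21. Genotype, sex and replicate came from the labels.

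The main test was that of edgeR 4.0.16 under R 4.3.3 (TMM, filter by expression within groups, robust quasi-likelihood, 1 model of the 4 genotypes), with Benjamini-Hochberg adjustment over 16610 genes. The common biological coefficient of variation was 0.0985. Calls required an adjusted p under 0.05 and a fold of at least 1.2, the thresholds of the study's methods. DESeq2 1.42.0 and limma 3.58.1 were alternatives. Each mouse is a separate animal, and p-values measure the spread between these mice. No 2 libraries of a group agreed within sampling noise (lowest chi-square per degree of freedom 4.15 over 112 pairs). Exact permutation tests were two-sided, as were correlation tests with 100000 resamples drawn within genotypes. In the shallowest mouse 3 reads make up 2.43e-05% of the total, a limit for counting error only. On simulated counts of zQ175 against wild-type mice over 16610 genes, edgeR recovered 90% of genes changed 1.5-fold and 96% of those changed 2-fold, with 3 false calls. Only these folds were simulated, in genes above a minimum mean count, so the recovery of smaller changes was not measured.

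The members and the gene lists were chosen with earlier results of these data known. Genes named in the text were the 10 members, Cry1, Cry2, Tef, Hlf and Bhlhe41, each gene of the clock list called in a zQ175 or Msh3 comparison, the 5 genes most like Dbp and Arntl and the 5 most opposed to Dbp between mice, Msh3, and markers at or near 0. Thra, Sphk2 and the activity-dependent genes called were named after their values were seen. The alternatives were RLE size factors, no filter, a minimum of 10 counts in each library, a sex term, a replicate block, limma on log2 TPM (pseudocount 0.1 or 1, from a mean of 0.1 TPM or unfiltered), the 2 groups compared alone, no fold threshold, each mouse left out and, chosen after seeing the data, only mice with choroid plexus markers under 500 CPM. Promoters were RefSeq sequences, read by Python 3.11.15 with pandas 2.3.3. Figures were drawn with matplotlib 3.10.9.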

Additional observations from a re-analysis of the deposited data

Results flagged for a closer look

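Within each genotype the highest and lowest mouse of each clock gene was compared with the rest by Dixon's ratio, which sets its distance from the next mouse against the whole range. Of 40 sets examined, 2 passed the 95% critical value, the number that chance gives (2). Clock in Msh3-/- male replicate 1 was the lowest of its genotype, at 86.7 CPM beside 95 to 102 CPM in the other mice (ratio 0.575). Nr1d2 in zQ175:Msh3-/- female replicate 2 was the highest of its genotype, at 121 CPM beside 85.6 to 100.4 CPM in the others (ratio 0.539).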

How the results depend on the processing

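Of 2960 refits of single clock genes, 2907 kept their side of the thresholds, 28 lost a call, 19 gained a call and 6 changed sign by more than their standard error. A further 33, counted among the 2907, were estimates of at most 0.08 in size that no fit called and that changed sign by less than that. The count of clock genes called in zQ175 against wild-type mice was 3, ranged from 2 to 4 over the other settings and from 3 to 5 over single mice left out, and was 5 without zQ175 male replicate 2. On the Msh3-/- background it was 6, ranged from 3 to 7, and was 3 by limma on log2(TPM + 0.1) with no filter, where Per1, Per2 and Nr1d1 had adjusted p-values of 0.0648, 0.059 and 0.0565. Averaged over both backgrounds it was 6 and ranged from 4 to 8. The counts of 0 for Msh3 loss, the interaction and sex were 0 under every setting run. The sign changes were those of fold changes that no fit called: Clock averaged over both backgrounds was 0.0375, 0.0364 and 0.0375 by limma on log2(TPM + 0.1), log2(TPM + 1) and log2(TPM + 0.1) with no filter. Among mice with low choroid plexus markers Clock on the Msh3-/- background was -0.0063, Per3 in Msh3-/- against wild-type mice was -0.0026 and Nr1d1 in males against females was 0.0089. The split of all calls in zQ175 against wild-type mice was 781 higher and 1144 lower by edgeR over 16610 genes, and 1316 higher and 881 lower by limma on log2(TPM + 0.1) over 22274 genes, where the genes tested by edgeR had a median log2 fold change of 0.07 in place of 0.01. The scale, the test and the genes tested all differ between these fits, and the cause was not tested. Ciart against wild-type was also called without wild-type male replicate 1 (adjusted p = 0.0493), wild-type female replicate 4 (0.0336) or zQ175 male replicate 1 (0.0441), and Nr1d1 without wild-type male replicate 2 (0.0186) or 3 (0.0264). Per3 on the Msh3-/- background was called without Msh3-/- female replicate 1 (-0.29), Msh3-/- male replicate 1 (-0.27), 2 (-0.29) or 3 (-0.27), or zQ175:Msh3-/- female replicate 2 (-0.29), male replicate 2 (-0.27) or 5 (-0.27). Under log2 TPM the averaged calls of Per2 (adjusted p of 0.0619 to 0.0815) and Nr1d1 (-0.20) were lost. The pairs of clock genes that varied together numbered 12, ranged from 10 to 17 over the other settings and from 10 to 15 over single mice left out. Per2 and Dbp did not pass without wild-type male replicate 1, 3 or 4, wild-type female replicate 2, zQ175 male replicate 1 or zQ175:Msh3-/- male replicate 1 or 3, with adjusted p-values of 0.055 to 0.1. Arntl and Ciart did not pass without wild-type female replicate 1 or male replicate 4, Msh3-/- male replicate 3 or female replicate 2, zQ175 male replicate 1 or female replicate 4, or zQ175:Msh3-/- female replicate 2, with adjusted p-values of 0.0533 to 0.0813. The replicate numbers did not pair the mice: deviations of same-numbered mice of the same sex correlated above 0.1 in 6 of 30 pairs. With a replicate block the counts were 3, 5 and 6 in the 3 zQ175 comparisons, Per1 on the Msh3-/- background then missing the threshold (adjusted p = 0.0573). Ciart had the fewest reads of the members, at 4.8 to 17.1 CPM, and the effect of depth was not compared between members.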
